A study of Rattus norvegicus with 19 samples.

Results

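The 7 genes described here lie on rat chromosome 1, away from the segment that matches human 16p11.2: *Ucp2*, *Ucp3*, *Cyb561a3*, *Ampd3*, *Pdilt*, *Vegfb* and *Mical2*. They were picked by symbol from the 32623 genes counted, because each changed against wild type (wt) in at least 1 group of carriers, and 1658 genes of the same chromosome outside the segment were tested in all. Hippocampal RNA of 19 male Sprague Dawley rats, an outbred stock, was sequenced with 1 library per animal. The groups were 6 wt rats with unaltered chromosomes, 4 Del/+ rats with the *Sult1a1* to *Spn* segment deleted on a single chromosome, 5 Dup/+ rats with the segment duplicated on a single chromosome, and 4 Del/Dup rats with a deleted and a duplicated chromosome. The rearrangements were made with CRISPR/Cas9 and the animals were littermates from crosses of carriers. The labels name no treatment. The rats were adult, and no exact age is given in the sources used here. The stock is outbred and each rearrangement was made in an edited embryo, so that the linked sequence of an altered chromosome 1 and its change in copy number cannot be told apart. The question taken up for each gene was which altered chromosome its change travelled with across the 4 groups.

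*Ucp2* and *Ucp3* encode carriers of the inner mitochondrial membrane, the first found in many tissues including brain and immune cells, the second known mainly from skeletal muscle and brown fat. *Ampd3* encodes an AMP deaminase, the form of red blood cells, which turns AMP into IMP. *Cyb561a3* encodes a membrane reductase that passes electrons from ascorbate to iron in the endosomal and lysosomal system. *Pdilt* encodes a protein disulfide isomerase-like chaperone of the endoplasmic reticulum, known from testis. *Vegfb* encodes a secreted growth factor that binds the receptor Flt1 and the coreceptor Nrp1, and *Mical2* encodes a flavin enzyme that oxidises actin and so promotes the disassembly of filaments. In bulk tissue, fewer cells of a type and less RNA per cell cannot be told apart.

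On the GRCr8 gene table, used only for the order of genes because the counts rest on an older assembly, the genes lay on both sides of the segment. On the *Sult1a1* side, *Pdilt* was nearest with 57 tested genes in between, followed by *Mical2* with 94, *Ampd3* with 104, *Ucp2* with 182 and *Ucp3* with 183. On the *Spn* side stood *Vegfb*, with 298 tested genes in between, and *Cyb561a3*, with 360. *Ucp2* and *Ucp3* were direct neighbours, and *Ampd3* and *Mical2* had 9 tested genes between them. Every other pair had at least 36 tested genes in between.

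Sequence just upstream of the start of transcription was read for 6 of the 7 genes from RefSeq (GRCr8), and *Ampd3* had no window. The windows are the 250 bases before the annotated start, written 5′ to 3′ on the gene's own strand. Capitals mark 3 promoter elements searched on both strands, the TATA box (TATAAA), the CCAAT box (CCAAT) and the GC box (GGGCGG), none of which overlapped another in these windows. Of 33469 windows of this length, 12.9% held the TATA box letters, 34.0% the CCAAT letters and 30.5% the GC box letters. *Ucp2* and *Ucp3* are shown because the neighbours were chosen by different carrier groups. *Pdilt*, *Vegfb* and *Mical2* are shown because their windows hold these elements, which the windows of *Ucp2*, *Ucp3* and *Cyb561a3* did not.
Ucp2, chr1:164251123-164251372, plus strand: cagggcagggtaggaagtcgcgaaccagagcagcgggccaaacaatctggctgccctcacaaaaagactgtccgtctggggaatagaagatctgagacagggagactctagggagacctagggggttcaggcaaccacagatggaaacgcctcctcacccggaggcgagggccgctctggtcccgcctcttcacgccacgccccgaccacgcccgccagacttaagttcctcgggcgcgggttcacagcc
Ucp3, chr1:164227660-164227909, plus strand: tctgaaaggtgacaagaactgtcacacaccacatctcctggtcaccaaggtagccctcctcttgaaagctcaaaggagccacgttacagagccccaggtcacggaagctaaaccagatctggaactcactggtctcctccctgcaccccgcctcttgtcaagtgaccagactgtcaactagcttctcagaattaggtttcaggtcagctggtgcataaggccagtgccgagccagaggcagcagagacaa
Pdilt, chr1:183300023-183300272, minus strand: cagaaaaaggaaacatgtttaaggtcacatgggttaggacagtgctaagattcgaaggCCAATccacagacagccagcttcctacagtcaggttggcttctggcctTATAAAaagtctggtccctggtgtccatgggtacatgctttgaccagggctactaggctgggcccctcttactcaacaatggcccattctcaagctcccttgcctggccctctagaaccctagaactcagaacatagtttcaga
Vegfb, chr1:213607153-213607402, minus strand: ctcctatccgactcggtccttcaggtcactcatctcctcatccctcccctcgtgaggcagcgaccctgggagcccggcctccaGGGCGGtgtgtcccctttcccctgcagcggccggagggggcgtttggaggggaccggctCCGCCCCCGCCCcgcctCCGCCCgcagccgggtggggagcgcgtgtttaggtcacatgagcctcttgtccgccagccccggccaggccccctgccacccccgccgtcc
Mical2, first start, chr1:175780196-175780445, plus strand: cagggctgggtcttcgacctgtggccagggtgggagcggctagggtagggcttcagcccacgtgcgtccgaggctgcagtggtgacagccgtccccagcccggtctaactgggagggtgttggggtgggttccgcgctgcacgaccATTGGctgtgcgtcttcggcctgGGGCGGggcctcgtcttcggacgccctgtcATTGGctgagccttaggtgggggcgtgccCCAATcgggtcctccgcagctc

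The TATA box letters of *Pdilt* began 144 bases before the start and its CCAAT letters 192 bases before it. *Vegfb* held 4 GC boxes, at 167, 108, 102 and 91 bases before the start. *Mical2* held 3 CCAAT boxes at 104, 51 and 22 bases and 1 GC box at 81 bases, while the window of its second annotated start held none. CpG dinucleotides, against a median of 5 over all windows, numbered 17 in *Ucp2*, 22 in *Vegfb* and 19 at the first start of *Mical2*. They numbered 4 in *Ucp3*, 1 each in *Cyb561a3* and *Pdilt* and 3 at the second start of *Mical2*. A match is a description of letters, and no binding was measured.

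Each library held 16191192 to 38760645 reads over genes. The median log2 difference from the wt mean over 24 genes of the segment was -1.09 to -0.91 in Del/+, 0.49 to 0.58 in Dup/+, -0.07 to 0.00 in Del/Dup and -0.04 to 0.02 in wt. Multi-mapped reads, those with more than 1 alignment, made up 40.1% to 50.5% of counted lines in wt and Dup/+ and 57.8% to 70.7% in Del/Dup. In Del/+ the share was 63.9% to 76.3% in replicates 1 to 3 and 41.6% in replicate 4, so that this share and the Del/Dup genotype cannot be told apart. A field of the label of wt replicate 5 gives Dup/+. Its segment genes stood at -0.04, inside the wt range and below every Dup/+ library, so their level was not that of Dup/+. Results are also given with it counted as Dup/+, to show how far they rest on this library. Markers of 8 hippocampal neuron genes were detected in every library, with a summed level of 3958 to 5727 counts-per-million (CPM, on library sizes scaled by TMM). Summed markers of microglia (221 to 291 CPM) and of endothelial and mural cells (169 to 212 CPM) overlapped between all groups. Choroid plexus markers ranged from 5.34 to 38.0 CPM in wt and reached 1300, 421 and 1246 CPM in single libraries of Del/+, Dup/+ and Del/Dup.

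The values that chose the genes come from the edgeR comparison of each carrier group with wt, in which a gene counted as called when its adjusted p (Benjamini-Hochberg, over all tested genes) was under 0.05. *Ucp2* was chosen by Del/+, *Ucp3*, *Cyb561a3*, *Ampd3* and *Pdilt* by Dup/+, *Vegfb* by Del/Dup, and *Mical2* by both Del/+ and Del/Dup. Of all 15440 genes tested, 0.771% were called in Del/+ against wt, 0.272% in Dup/+ and 0.0907% in Del/Dup, beside 2, 4 and 2 of the 7 genes. Nothing is read from these counts, since the genes were picked by them. Just inside the threshold stood *Vegfb* in Del/Dup, with an adjusted p of 0.0455, and *Ampd3* in Dup/+, with 0.0445. Just outside stood *Mical2* in Dup/+, with 0.0555, and *Cyb561a3* in Del/Dup, with 0.0840.

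**Figure D1:**
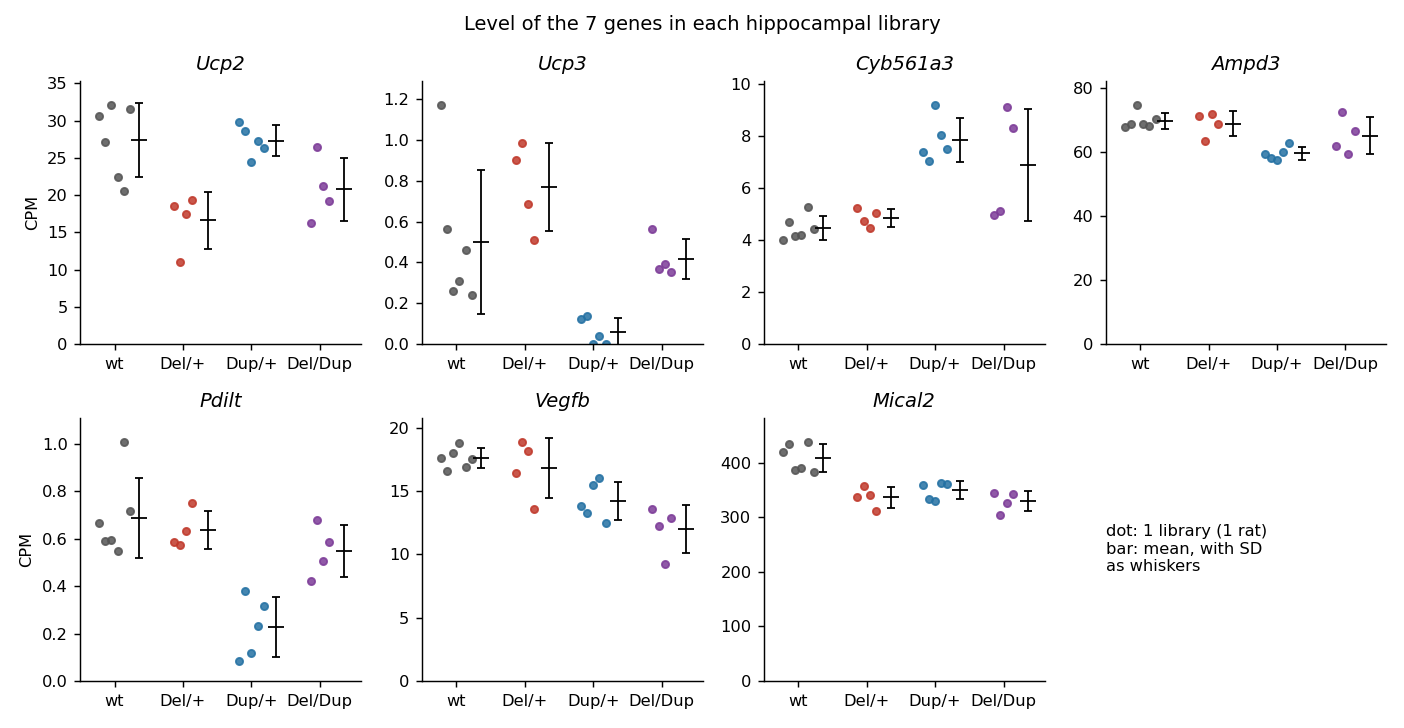
Level of each gene in counts-per-million (CPM, linear axis from 0), with 1 dot per library, the group mean as a bar and the SD as whiskers, for wt (n = 6), Del/+ (n = 4), Dup/+ (n = 5) and Del/Dup (n = 4). Ucp2 is low in all Del/+ libraries, Ucp3 and Pdilt are low and Cyb561a3 is high in all Dup/+ libraries, and Mical2 is below wt in every carrier.

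*Ucp2* was the gene chosen by the deletion alone. It stood at 20.6, 28.8 and 32.1 CPM in wt (lowest, median and highest). It stood at 18.5, 11, 17.5 and 19.3 CPM in Del/+ replicates 1 to 4. All Del/+ libraries were below all wt libraries. Microglia markers, summed over 10 genes, were at 274, 221, 253 and 261 CPM in the same Del/+ libraries and at 273 to 291 CPM in wt. They were at 243 to 281 CPM in Dup/+ and 256 to 275 CPM in Del/Dup, and their part in the level of *Ucp2* was not tested. In Dup/+ it stood at 29.8, 28.6, 24.4, 27.3 and 26.3 CPM, inside the wt range. In Del/Dup it stood at 16.3, 26.4, 21.2 and 19.2 CPM in replicates 2 to 5, 2 of them below every wt library and 2 in the wt range. The mean (± SD, in CPM) was 27.4 ± 4.90 for the 6 wt, 27.3 ± 2.09 for the 5 Dup/+, 20.8 ± 4.25 for the 4 Del/Dup and 16.6 ± 3.82 for the 4 Del/+ animals. The fitted log2 fold change against wt was -0.71 (SE 0.15) in Del/+, -0.00 (SE 0.14) in Dup/+ and -0.40 (SE 0.15) in Del/Dup. With a term for a multi-mapped share over 55% (the share term), the value in Del/+ was -0.50 and its call was lost (edgeR adjusted p = 0.405). Del/+ replicate 4 is the only Del/+ or Del/Dup library under 55%, so that this term rests on it.

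The deletion can be followed a second time in libraries that did not choose *Ucp2*, by setting Del/Dup against Dup/+, where the deleted chromosome takes the place of an unaltered one beside the duplication. The level was again lower with the deletion, with a log2 fold change of -0.40 (SE 0.16, 95% interval -0.73 to -0.06). The change did not pass the test (edgeR adjusted p = 0.274), and 0.317% of all tested genes were called in this comparison. With the share term it was -0.11 (edgeR adjusted p = 0.920), and the value in Del/Dup against wt was -0.11 as well. Dup/+ and Del/Dup overlapped, since Del/Dup replicate 3 at 26.4 CPM lay among the Dup/+ libraries.

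*Ucp3*, next to *Ucp2* on the chromosome, was chosen by Dup/+. Read counts were low throughout, 6 to 44 reads per library in wt. It stood at 0.239, 0.384 and 1.17 CPM in wt (lowest, median and highest). In Dup/+ it stood at 0.124, 0.138, 0, 0.0385 and 0 CPM in replicates 1 to 5, all below every wt library. In the libraries at 0, replicates 3 and 5, a count of 0 allows up to 3 reads, or 0.179 and 0.119 CPM. Summed over libraries, Dup/+ held 8 reads against 99 in wt, a ratio of 0.122 per read sequenced (exact 95% interval 0.0514 to 0.251, for counting error only). In Del/+ the gene stood at 0.900, 0.984, 0.684 and 0.511 CPM, and in Del/Dup at 0.561, 0.366, 0.390 and 0.353 CPM. Both groups overlapped wt, and every library of both lay above every Dup/+ library.

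The mean of *Ucp3* (± SD, in CPM) was 0.770 ± 0.214 for the 4 Del/+, 0.500 ± 0.351 for the 6 wt, 0.417 ± 0.0968 for the 4 Del/Dup and 0.0602 ± 0.0669 for the 5 Dup/+ animals. The spread in wt came mostly from replicate 1, at 1.17 CPM. The fitted log2 fold change against wt was -2.10 (SE 0.42) in Dup/+, 0.50 (SE 0.36) in Del/+ and -0.27 (SE 0.39) in Del/Dup. The fit adds a prior count of 2, which draws values of genes with few reads toward 0, and DESeq2 gave -2.98 in Dup/+. Without wt replicate 1 the value in Del/+ was 0.91 and that in Del/Dup 0.14, so that the direction of the latter is not settled. With the term for a multi-mapped share over 55% the value in Del/+ was -0.01, and that in Dup/+ kept its call. In the comparison that did not choose it, Del/Dup against Del/+, the log2 fold change was -0.77 (SE 0.42, 95% interval -1.66 to 0.12) and did not pass the test (edgeR adjusted p = 0.671), while 0.175% of all tested genes were called. Skeletal muscle markers, summed over 5 genes, were at 13.8 to 17.7 CPM in wt and 13.8 to 17.8 CPM in Dup/+.

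*Cyb561a3* was the only one of the 7 genes chosen for being higher. It stood at 4.02, 4.32 and 5.28 CPM in wt (lowest, median and highest). In Dup/+ it stood at 7.39, 7.03, 9.20, 8.04 and 7.52 CPM, all above every wt library. In Del/+ it stood at 5.23, 4.72, 4.45 and 5.05 CPM, inside the wt range. Del/Dup fell apart into libraries at 4.95 and 5.13 CPM, replicates 2 and 3, which lay in the wt range, and libraries at 9.12 and 8.31 CPM, replicates 4 and 5, which lay in the Dup/+ range. The share of multi-mapped reads was 59.9% and 68.8% in the lower pair and 70.7% and 57.8% in the higher, and the summed choroid plexus markers were 1246 and 117 CPM against 596 and 44.4 CPM. Their part in the level of *Cyb561a3* was not tested.

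The mean of *Cyb561a3* (± SD, in CPM) was 7.84 ± 0.846 for the 5 Dup/+, 6.88 ± 2.15 for the 4 Del/Dup, 4.86 ± 0.347 for the 4 Del/+ and 4.46 ± 0.467 for the 6 wt animals. The fitted log2 fold change against wt was 0.80 (SE 0.13) in Dup/+, 0.62 (SE 0.14) in Del/Dup and 0.12 (SE 0.14) in Del/+. In Del/Dup against Del/+ it was 0.50 (SE 0.16, 95% interval 0.17 to 0.84), which did not pass the test (edgeR adjusted p = 0.315). No Del/Dup library lay near the mean of its group. On the GRCr8 table *Cyb561a3* overlaps *Tmem138*, and whether reads were counted by strand is not given in the sources used here.

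*Ampd3* was measured with at least 960 reads in every library and differed by a small amount. It stood at 67.8, 68.7 and 74.7 CPM in wt (lowest, median and highest). In Dup/+ it stood at 59.4, 58.2, 57.4, 60.0 and 62.7 CPM, all below every wt library. In Del/+ it stood at 71.2, 63.5, 71.9 and 68.8 CPM and in Del/Dup at 62.0, 72.5, 59.4 and 66.6 CPM. Del/Dup spread across both ranges, with 3 of 4 libraries below every wt library. The mean (± SD, in CPM) was 69.7 ± 2.58 for the 6 wt, 68.9 ± 3.79 for the 4 Del/+, 65.1 ± 5.76 for the 4 Del/Dup and 59.6 ± 2.05 for the 5 Dup/+ animals. Against wt the log2 fold change was -0.23 (SE 0.05) in Dup/+, -0.10 (SE 0.05) in Del/Dup and -0.02 (SE 0.05) in Del/+. The call in Dup/+ was lost with the share term (-0.23, edgeR adjusted p = 0.0576). In Del/Dup against Del/+ it was -0.08 (SE 0.05) and did not pass the test (edgeR adjusted p = 0.738). Summed red cell markers, which include globins, were higher in Dup/+ (182 to 247 CPM) than in wt (119 to 163 CPM), with 3 of 6 tested genes called, and were 105 to 165 CPM in Del/+ and 134 to 165 CPM in Del/Dup. Their part in the level of *Ampd3* was not tested.

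*Pdilt* was read at a low level as well, 2 to 33 reads per library in wt and Dup/+. It stood at 0.548, 0.629 and 1.01 CPM in wt (lowest, median and highest). In Dup/+ it stood at 0.0826, 0.381, 0.119, 0.231 and 0.316 CPM, all below every wt library and below every library of the other carrier groups. In Del/+ it stood at 0.588, 0.574, 0.632 and 0.752 CPM, inside the wt range. In Del/Dup it stood at 0.421, 0.680, 0.506 and 0.588 CPM, with 2 of 4 libraries in the wt range and 2 below it. Dup/+ held 29 reads against 127 in wt, a ratio of 0.346 per read sequenced (exact 95% interval 0.223 to 0.521, for counting error only).

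The mean of *Pdilt* (± SD, in CPM) was 0.688 ± 0.170 for the 6 wt, 0.637 ± 0.0810 for the 4 Del/+, 0.549 ± 0.111 for the 4 Del/Dup and 0.226 ± 0.127 for the 5 Dup/+ animals. Against wt the log2 fold change was -1.31 (SE 0.25) in Dup/+, -0.30 (SE 0.25) in Del/Dup and -0.10 (SE 0.23) in Del/+. In Del/Dup against Del/+, where only Del/Dup carries a duplicated chromosome, it was -0.20 (SE 0.26, 95% interval -0.77 to 0.36) and did not pass the test (edgeR adjusted p = 0.894). With wt replicate 5, the highest wt library for *Pdilt*, counted as Dup/+, the log2 fold change of Dup/+ was -0.61. On the GRCr8 table the span of *Pdilt* overlaps 7 other protein-coding genes, among them *Acsm5*, an acyl-CoA synthetase of the mitochondrial matrix.

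*Vegfb* was chosen by the animals with both rearrangements. It stood at 16.6, 17.6 and 18.8 CPM in wt (lowest, median and highest). In Del/Dup it stood at 13.6, 12.2, 9.27 and 12.9 CPM, all below every wt library. In Dup/+ it stood at 13.8, 13.3, 15.5, 16.0 and 12.5 CPM, also all below every wt library. In Del/+ it stood at 16.4, 18.9, 18.2 and 13.6 CPM, with replicate 4 lowest. The mean (± SD, in CPM) was 17.6 ± 0.787 for the 6 wt, 16.8 ± 2.35 for the 4 Del/+, 14.2 ± 1.49 for the 5 Dup/+ and 12.0 ± 1.91 for the 4 Del/Dup animals. Against wt the log2 fold change was -0.55 (SE 0.10) in Del/Dup, -0.31 (SE 0.09) in Dup/+ and -0.07 (SE 0.10) in Del/+. With the share term the value in Del/Dup was -0.93 and its call was lost (edgeR adjusted p = 0.0969), and the value in Del/+ was -0.36.

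The comparison of *Vegfb* that holds no choosing library is Del/+ against Dup/+, in which it was 0.24 higher in Del/+ on the log2 scale (SE 0.10, 95% interval 0.02 to 0.46). This did not pass the test (edgeR adjusted p = 0.311), with 0.784% of all tested genes called. With a term for libraries in which more than 55% of reads were multi-mapped it was -0.06, so that its direction depends on that term. In Del/Dup against Del/+, described only, the log2 fold change was -0.48 (SE 0.11) with all libraries and -0.56 with only the libraries over 55% in both groups. Summed endothelial and mural markers were 169 to 212 CPM in wt and 180 to 199 CPM in Del/Dup.

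*Mical2* was lower in every carrier than in any wt animal. It stood at 383, 406 and 439 CPM in wt (lowest, median and highest). It stood at 337, 357, 342 and 312 CPM in Del/+, at 360, 333, 331, 363 and 361 CPM in Dup/+, and at 345, 305, 327 and 343 CPM in Del/Dup. The carrier groups overlapped one another. The mean (± SD, in CPM) was 409 ± 25.3 for the 6 wt, 350 ± 16.1 for the 5 Dup/+, 337 ± 18.9 for the 4 Del/+ and 330 ± 18.4 for the 4 Del/Dup animals. Against wt the log2 fold change was -0.28 (SE 0.05) in Del/+, -0.31 (SE 0.05) in Del/Dup and -0.23 (SE 0.05) in Dup/+. With the share term the call was lost in Del/Dup (-0.46, edgeR adjusted p = 0.135) and kept in Del/+ (-0.39, edgeR adjusted p = 0.0424). In Dup/+ the gene was called with that term (-0.23, edgeR adjusted p = 0.0466) and by DESeq2 (adjusted p = 0.00269). No comparison is free of a choosing library for *Mical2*, so none was tested. Between carrier groups the values were -0.03 (SE 0.06) in Del/Dup against Del/+, -0.08 (SE 0.05) in Del/Dup against Dup/+ and -0.05 (SE 0.05) in Del/+ against Dup/+. Summed hippocampal neuron markers were 4852 to 5727 CPM in wt, 4289 to 4876 CPM in Del/+, 4533 to 5360 CPM in Dup/+ and 3958 to 4917 CPM in Del/Dup, and their part in the level of *Mical2* was not tested.

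**Figure D2:**
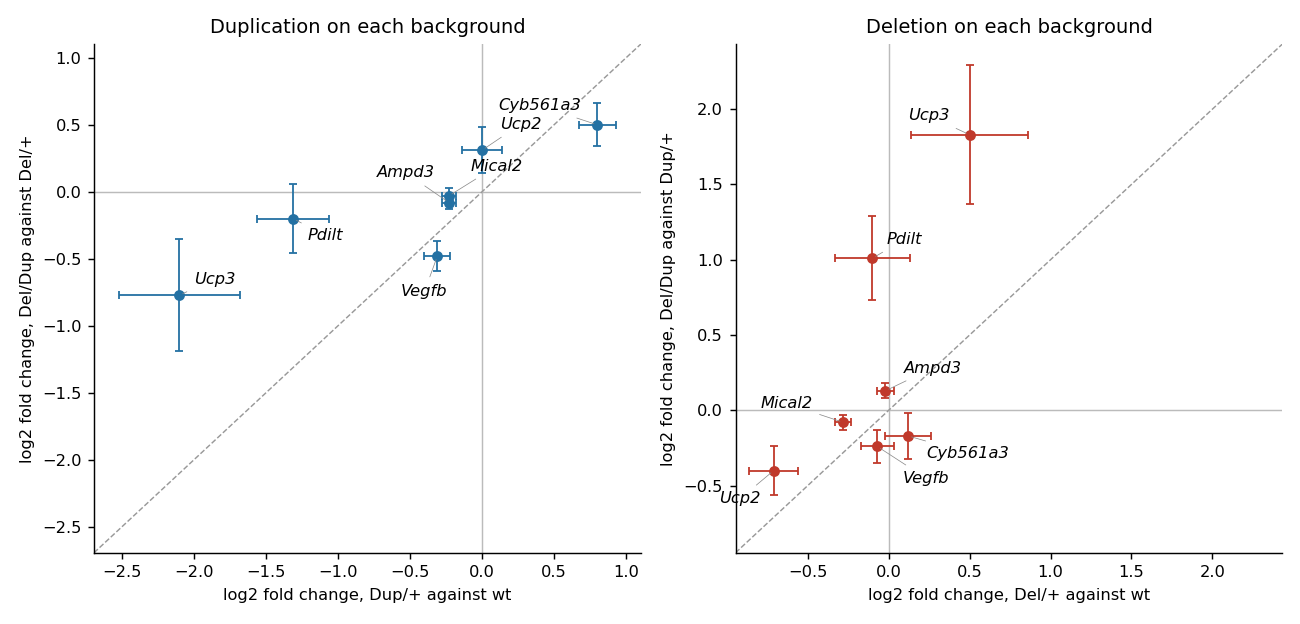
Log2 fold changes of the 7 genes, with SE as bars, for each rearrangement beside an unaltered chromosome (x axis) and beside the other rearrangement (y axis), the dashed line marking equal changes. For the duplication, Ucp3 moves from -2.10 to -0.77 and Pdilt from -1.31 to -0.20, while Cyb561a3 stands at 0.80 and 0.50. For the deletion, Ucp2 stands at -0.71 and -0.40.

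Across the genes, 6 tests were made in libraries that had not chosen the gene, and edgeR called 0 of them. At an unadjusted p under 0.05 there were 3, for *Ucp2*, *Cyb561a3* and *Vegfb*. DESeq2 called 0, but gave no adjusted p for *Ucp3* and *Pdilt*, which were counted as not called. Of all tested genes, 13.5% were under that level in Del/Dup against Dup/+, the comparison of *Ucp2*, 8.48% in Del/Dup against Del/+, that of *Cyb561a3*, and 13.5% in Del/+ against Dup/+, that of *Vegfb*. For the 5 genes chosen by a single altered chromosome, the fitted change in the second comparison had the sign of the first in 5 of 5. The second change was smaller than the first in each of these. The first values chose the genes and the second did not. Nothing is read from the 5 of 5, since 4 of these genes share the comparison Del/Dup against Del/+ and its libraries. The 95% intervals of *Ucp3* (-1.66 to 0.12), *Ampd3* (-0.20 to 0.03) and *Pdilt* (-0.77 to 0.36) in that comparison included 0. Those of *Ucp2* and *Cyb561a3* in their second comparisons did not. The share of all tested genes with the same sign in both comparisons is not given here. Over all 7 genes, 0 were called in Del/Dup against Dup/+ and 0 in Del/Dup against Del/+, with 5 and 2 at an unadjusted p under 0.05. Of these, *Ucp2* in the former and *Cyb561a3* in the latter are the tests given above, and the rest had been chosen by a group of the comparison. DESeq2 called 1 in each, *Ucp3* and *Vegfb*, of 177 and 74 genes that it called in all, and both had likewise been chosen by a group of that comparison. In Del/+ against Dup/+, 4 were called, *Ucp2*, *Ucp3*, *Cyb561a3* and *Pdilt*, beside 0.784% of all tested genes and in libraries that had chosen them. That count was 0 with the term for a multi-mapped share over 55%, 1 with wt replicate 5 counted as Dup/+ and 1 to 5 when single libraries were left out (1 without Dup/+ replicate 1 or 4 or Del/+ replicate 3).

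The calls against wt were recomputed with single libraries left out. These calls chose the genes and the fits share most libraries, so nothing is read from how often a call or its direction held. When each of the 19 libraries was left out in turn, *Cyb561a3* in Dup/+ was called in all 19 fits, and *Mical2* in Del/+ in 18, all but that without Del/+ replicate 4. *Mical2* in Del/Dup was called in 16, the exceptions being the fits lacking wt replicate 1 or 2 or Del/Dup replicate 4. *Pdilt* in Dup/+ was called in 16, and not without Dup/+ replicates 1, 3 or 4. *Ucp2* in Del/+ was called in 14, and not without wt replicates 1, 2, 3 or 6 or Del/+ replicate 2. *Ucp3* in Dup/+ was called in 13, and not without wt replicates 1 or 2 or Dup/+ replicates 1, 3, 4 or 5. *Vegfb* in Del/Dup was called in 7, and not without wt replicates 1, 2, 3, 4 or 6, Dup/+ replicates 1 to 3, Del/Dup replicate 4 or Del/+ replicates 1 to 3. *Ampd3* in Dup/+ was called in 5, and not without any 1 of the wt or Dup/+ libraries, Del/Dup replicate 5 or Del/+ replicates 1 or 4. The direction of each of these changes was the same in all 19 fits, and the log2 fold changes of those with most lost calls ran from -0.25 to -0.21 for *Ampd3*, near the threshold with all libraries, and from -0.62 to -0.44 for *Vegfb*. With wt replicate 5 counted as Dup/+, only 2 of the 7 genes, *Ucp2* and *Vegfb*, were called in any carrier group. The log2 fold changes in Dup/+ were then 0.77 for *Cyb561a3*, -0.20 for *Ampd3*, -1.48 for *Ucp3* and -0.61 for *Pdilt*. Those of *Mical2* were -0.26 in Del/+ and -0.29 in Del/Dup.

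The level in Del/Dup was next set against the sum of the separate changes, that is, the wt mean plus the change in Del/+ plus the change in Dup/+, in CPM and without a test. The libraries that chose a gene also supply its sum, and for *Vegfb* and *Mical2* the measured level too, so nothing is read from the distance between them. The measured level and the sum were 0.549 and 0.175 CPM for *Pdilt*, and their difference of 0.374 CPM became 0.178 with wt replicate 5 counted as Dup/+. They were 330 and 277 CPM for *Mical2*, and the difference of 52.6 CPM became 31.9 in the same way. They were 65.1 and 58.7 CPM for *Ampd3* and 20.8 and 16.4 CPM for *Ucp2*.

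*Vegfb* and *Cyb561a3* were measured below their sums, at 12.0 and 6.88 CPM with sums of 13.4 and 8.23. *Ucp3* was measured at 0.417 CPM with a sum of 0.330, a difference of 0.0870 CPM that was -0.0469 without wt replicate 1.

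**Figure D3:**
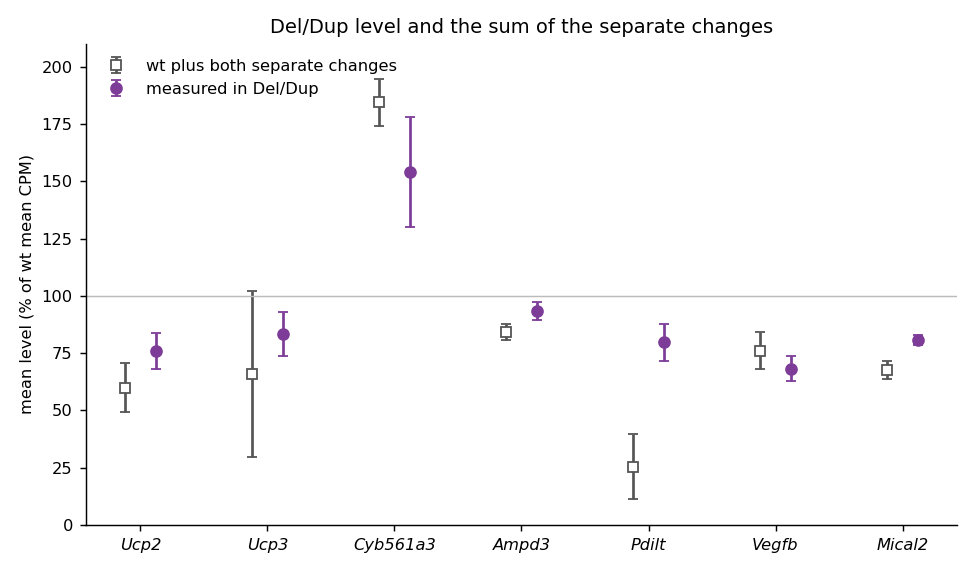
Mean level in Del/Dup (filled, n = 4) and the level given by wt plus the separate changes of Del/+ and Dup/+ (open squares), both in % of the wt mean with SE as bars. Pdilt stands at 79.8% where the sum gives 25.4%, and Mical2 at 80.7% where it gives 67.8%, from libraries that include those that chose the genes.

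The genes around each of the 7 were examined for the same changes, as the 5 tested genes on either side. *Ucp2* and *Ucp3* are neighbours of each other and were left out of each other's counts. Against wt, 0 of the other neighbours of any of the 7 were called in any carrier group by edgeR. In Del/+ against wt, 3 of the 9 neighbours of *Ucp2* other than *Ucp3* had an unadjusted p under 0.05, and in Dup/+ against wt 1 each of those of *Ucp3* and *Pdilt* and 0 of those of *Cyb561a3* and *Ampd3* had. For *Vegfb* in Del/Dup it was 1 of 10, and for *Mical2* it was 2 of 10 in Del/+ and 0 of 10 in Del/Dup. Of all tested genes, 18.4% had an unadjusted p under 0.05 in Del/+ against wt, 8.94% in Dup/+ and 16.2% in Del/Dup. The neighbours of *Ucp2* had a median log2 fold change of -0.05 in Del/+ against wt, with a range from -0.37 to 0.70, against -0.71 for *Ucp2*. Those of *Ucp3* had a median of 0.01 in Dup/+ and ran from -0.14 to 0.17, against -2.10. Those of *Cyb561a3* ran from -0.40 to 0.43 in Dup/+ and those of *Ampd3* from -0.13 to 0.04. Those of *Vegfb* ran from -0.21 to 0.16 in Del/Dup. Those of *Mical2* ran from -0.25 to 0.05 in Del/+ and from -0.37 to 0.02 in Del/Dup, a range that holds the -0.31 of *Mical2*. The 7 were chosen by their values in these comparisons and the neighbours were not, so nothing is read from the distance between them.

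*Acsm5*, the next tested gene after *Pdilt*, was not called against wt in any carrier group, with log2 fold changes of 0.29 in Del/+, -0.87 in Dup/+ (edgeR adjusted p = 0.222) and -0.40 in Del/Dup. Its log2 fold change was 1.16 in Del/+ against Dup/+, which passed the test (edgeR adjusted p = 0.0340), and -0.68 in Del/Dup against Del/+, where that of *Pdilt* was -0.20. On the table the genes overlap, so reads of the 2 genes may not be fully separate. In Del/+ against Dup/+, *Pgm2l1*, a phosphoglucomutase relative expressed in brain, was lower in Del/+ by a log2 fold change of -0.32 (edgeR adjusted p = 0.0184) and lies near *Ucp2* and *Ucp3*. *Plekhb1*, near *Ucp2*, was higher by 0.30 (edgeR adjusted p = 0.00373).

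On chromosome 1 outside the segment, 12 of the 1658 tested genes placed there by the table were called in Del/+ against wt, 7 in Dup/+ and 3 in Del/Dup. These include 2, 4 and 2 of the chosen genes, and the rest numbered 10, 3 and 1. On other chromosomes, 68, 8 and 4 of 12021 tested genes were called, and among 1737 tested genes without a match in the table, some of which may lie on chromosome 1, the counts were 15, 7 and 6. The called genes were spread over the chromosome on both sides and did not lie in a run next to the segment. The closest were *Sgf29* in Dup/+, the first tested gene beyond *Sult1a1*, and *Eif3c* in Del/Dup, the fourth.

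**Figure D4:**
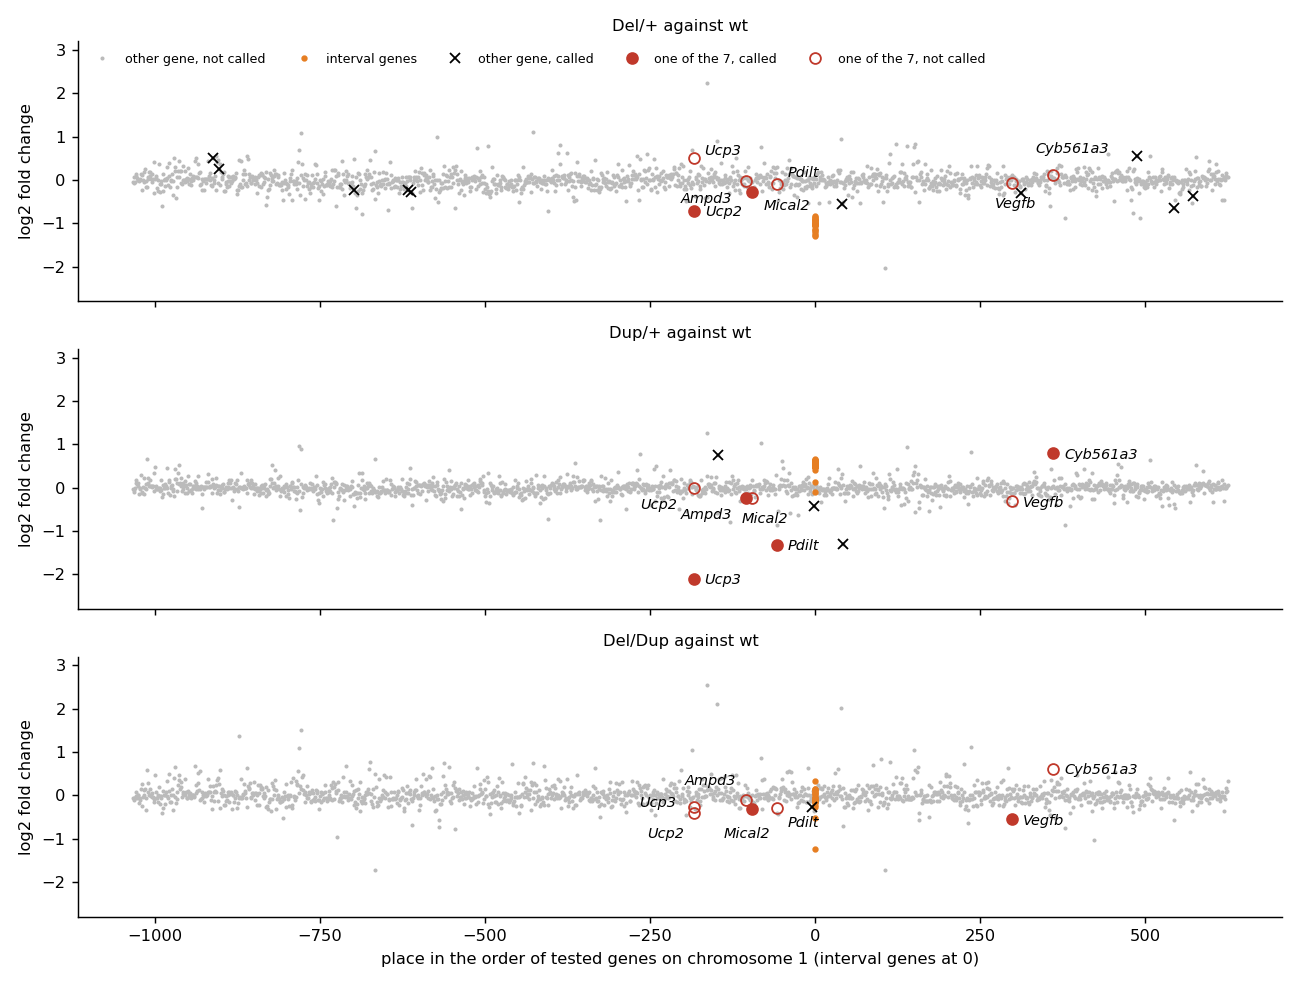
Log2 fold change against wt of the tested genes of chromosome 1 in each carrier group, placed by their order (not distance) from the segment, whose genes stand at 0. Orange points are segment genes, crosses are other called genes, filled red circles are those of the 7 that were called and open red circles those that were not. Apart from the adjoining Ucp2 and Ucp3, the 7 have tested genes between them.

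Genes with related functions were counted from lists of 3 to 18 further tested genes for each of the 7. The other uncoupling proteins, *Slc25a14*, *Slc25a27* and *Slc25a30*, had log2 fold changes of 0.07 to 0.09 for Del/+, -0.06 to 0.04 for Dup/+ and 0.02 to 0.11 for Del/Dup, each against wt, with 0 of 3 called. Of 18 genes of fatty acid oxidation, 1 was called, *Acadm*, the medium-chain acyl-CoA dehydrogenase, which was 0.23 higher in Del/+ against wt (edgeR adjusted p = 0.0364). Of 13 genes that convert AMP and other adenine nucleotides, 0 were called against wt. *Ak4*, a mitochondrial adenylate kinase, had a log2 fold change of -0.48 in Del/+ against Dup/+ (edgeR adjusted p = 0.00261), from -0.24 in Del/+ and 0.24 in Dup/+ against wt. It was the only gene of these lists, apart from the 7, called between carrier groups.

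Of 6 other genes of the cytochrome b561 family, 18 protein disulfide isomerases and their partners, 8 VEGF ligands and receptors and 14 genes of the MICAL family and its partners, 0 were called in any of the 6 comparisons by edgeR. Their medians in Dup/+ against wt were 0.02, 0.02, -0.04 and -0.07, beside a median of -0.00 over all tested genes. In Del/Dup, which chose *Vegfb* and *Mical2*, the VEGF list had a median of -0.07 (range -0.35 to 0.39) and the MICAL list one of -0.06 (-0.30 to 1.25). In Del/+, which also chose *Mical2*, the MICAL list had a median of -0.04 (-0.36 to 0.58). *Micalcl*, counted as a separate gene in the files but joined to *Mical2* in the newer table, had log2 fold changes of -0.04, 0.18 and 0.01 in Del/+, Dup/+ and Del/Dup against wt.

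The genes whose level was most like each of the 7 across libraries were found by Pearson correlation of log2 CPM over the 19 libraries, which share groups and animals, and are given as a description. *Ucp2* was followed most closely by *Il16* (0.89), *Slc9a2* (0.89) and *Raver2* (0.87). After group means were taken off, these correlations were 0.80, 0.76 and 0.81. For the genes that follow, the second value in brackets is the correlation within groups. *Ucp3* was closest to *Klhdc7a* (0.85, within groups 0.59), *Kank1* (0.82, 0.42) and *Kctd21* (0.80, 0.43), and *Pdilt* to *Icam2* (0.86, 0.83), *Klhdc7a* (0.79, 0.32) and *Pik3ap1* (0.79, 0.74). *Ampd3* was closest to *Rhoq* (0.89, 0.70), *Olfml1* (0.79, 0.50) and *Hmox1* (0.78, 0.71). *Cyb561a3* was closest to *Gfpt2* (0.80, 0.59), *Mmp19* (0.77, 0.74) and the small RNA RF00100 (0.76, 0.15). *Vegfb* was closest to *M6pr* (0.80, 0.49), *Ap5b1* (0.80, 0.48) and *Sec23ip* (0.79, 0.42), and *Mical2* to *Kat2a* (0.87, 0.69), *Kif3c* (0.78, 0.53) and *Stt3b* (0.77, 0.36).

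Among the 7 themselves, the genes chosen by the duplication were correlated over the 19 libraries, which their shared choice fixes in part. *Ucp3* and *Pdilt* had a correlation of 0.71 and *Ampd3* and *Pdilt* of 0.74, while *Cyb561a3* ran opposite to *Ampd3* at -0.77. After group means were taken off these were -0.07, 0.24 and -0.36. *Ucp2* and its neighbour *Ucp3* had a correlation of -0.47, and of -0.06 within groups.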

How the data were processed

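RNA of hippocampus from 19 male rats was sequenced, 1 library per animal. The authors used a stranded total RNA kit, single-end reads of 50 bases, HISAT2 against Rno6 with Ensembl models and HTSeq-count. The labels name both rRNA removal and polyA RNA, and which holds was not settled here. The files deposited by the authors hold counts of reads for each gene, without normalization, and all values proved to be whole numbers. The 5 summary lines of each file were left out of gene totals. Of counted lines, 6.94% to 16.1% had no gene and 0.142% to 0.334% were ambiguous. The strand setting of the counting is not given in the sources used here.

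Of 24345 genes with a read, 15440 passed filterByExpr and were tested in edgeR 4.0.16 (R 4.3.3) by its quasi-likelihood F test in 1 fit of all 19 libraries with a mean per group, TMM scaling and a prior count of 2. Adjusted p is Benjamini-Hochberg over all tested genes, with a threshold of 0.05. CPM uses the scaled library size. The SE and 95% intervals were derived from the F statistic on the scale of that fold change. Depth was 16191192 to 38760645 reads per library, and the common biological coefficient of variation was 0.101, so that counting error adds to the spread between animals for genes of few reads. Intervals on pooled reads and floors of 3 reads cover counting error only. The script was tested on simulated data.

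The members, lists and tests were chosen with earlier results of these data known. A gene was tested only in a comparison in which neither group had chosen it. The genes named were the 7, called genes among 5 tested neighbours on each side, the 3 most alike by correlation, and called genes of the lists. Groups followed the description field of the labels, wt replicate 5 included. Other genes (*Sgf29*, *Eif3c*, *Micalcl* and the uncalled uncoupling proteins) were named after their values were seen. Gene order and upstream windows came from RefSeq GRCr8, to which 88.8% of tested genes matched by symbol. Alternatives were median-of-ratios size factors, DESeq2 1.42.0, no filter, only 2 groups in the fit, each library left out, wt replicate 5 as Dup/+, a replicate block and a term for a multi-mapped share over 55%. Restricting the fold changes of Del/Dup against Del/+ to libraries over 55% was chosen after seeing the data.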

Additional observations from a re-analysis of the deposited data

Results flagged for a closer look

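Within groups of 4 to 6 libraries, the gap of the highest or lowest library to its nearest neighbour, over the range of the group (Dixon's rule), stood out in 3 of 28 groups, where chance gives about 1 in 20. These were *Ucp3* in wt replicate 1 (1.17 CPM), *Ampd3* in wt replicate 3 (74.7 CPM) and *Pdilt* in wt replicate 5 (1.01 CPM). Each is the highest library of the wt group. For *Pdilt* it is the library with the conflicting label (wt or Dup/+), whose segment genes stood at the wt level. Its level of *Pdilt* lay farthest from the Dup/+ libraries.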

How the results depend on the processing

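None of the 6 tests in libraries that had not chosen the gene was called by edgeR with all libraries or in 25 alternatives. Of these, DESeq2 gave no adjusted p for *Ucp3* and *Pdilt*, which were counted as not called. The count of the 7 genes called in Del/Dup against Dup/+ was 0, and it was 1 (*Ucp3*) with DESeq2, with the replicate block and without wt replicate 1, so that it ran from 0 to 1 when libraries were left out. In Del/Dup against Del/+ it was 0, and it was 1 (*Vegfb*) with DESeq2, with the term for a multi-mapped share over 55% and without Del/+ replicate 4 (0 to 1). In Del/+ against Dup/+ it was 4, with 1 when wt replicate 5 counted as Dup/+, 0 with the share term and 1 to 5 when libraries were left out. There it was 1 without Dup/+ replicate 1 or 4 or Del/+ replicate 3, and 2 without Dup/+ replicate 2, 3 or 5 or Del/+ replicate 2 or 4. The genes called in any carrier group against wt numbered 7, with 2 when wt replicate 5 counted as Dup/+, 4 with the replicate block, 4 with the share term (*Ucp2*, *Ampd3* and *Vegfb* lost) and 3 to 7 when libraries were left out. There it was 3 without wt replicate 1 or 2 or Dup/+ replicate 1 or 3, and 4 without wt replicate 3 or 6 or Dup/+ replicate 4. Fold changes of single genes kept their direction in all but 18 of their alternative values. With the share term, *Ucp3* in Del/+ against wt was -0.01, *Pdilt* in Del/+ 0.11 and *Vegfb* in Del/+ against Dup/+ -0.06. With the replicate block, *Pdilt* in Del/+ was 0.02 and *Ucp2* in Dup/+ 0.06, and with wt replicate 5 as Dup/+ *Pdilt* in Del/+ was 0.04. When libraries were left out, the values spanned -0.03 to 0.02 for *Ampd3*, -0.18 to 0.04 for *Pdilt* and -0.13 to 0.02 for *Vegfb* in Del/+ against wt, -0.07 to 0.05 for *Ucp2* in Dup/+, -0.41 to 0.14 for *Ucp3* in Del/Dup and -0.07 to 0.01 for *Mical2* in Del/Dup against Del/+. The difference of Del/Dup from the sum of the separate changes was 0.178 CPM for *Pdilt* and 31.9 CPM for *Mical2* with wt replicate 5 as Dup/+, and for *Ucp3* it ran from -0.0469 (without wt replicate 1) to 0.160 CPM when libraries were left out. With the replicate block the calls of *Ampd3* and *Pdilt* in Dup/+, *Vegfb* in Del/Dup and *Cyb561a3* in Del/+ against Dup/+ were lost. Their log2 fold changes were then -0.22, -1.30, -0.56 and -0.64. With the same block *Mical2* was called in Dup/+. The numbers only name the animals, as same-number correlations ran from -0.17 to 0.12 over 24 pairs and 0 libraries correlated best with their own number. The cause of these differences was not tested.

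Over all genes, counts called against wt were 119 in Del/+, with 655 in DESeq2, 72 with the replicate block and 46 (without Del/+ replicate 2) to 337 (without Del/Dup replicate 2) when libraries were left out. They were 42 in Dup/+, with 80 in DESeq2, 12 with wt replicate 5 as Dup/+ and 27 without wt replicate 1 or Dup/+ replicate 1. They were 14 in Del/Dup, with 9 under median-of-ratios scaling, 183 in DESeq2, 57 with wt replicate 5 as Dup/+, 7 with the replicate block, 3 with the share term and 2 (without Del/Dup replicate 4) to 216 (without Del/Dup replicate 3). Del/Dup against Dup/+ gave 49, with 177 in DESeq2, 12 with wt replicate 5 as Dup/+, 7 with the share term and 23 (without Del/Dup replicate 4) to 79 (without Del/Dup replicate 3). Del/Dup against Del/+ gave 27, with 74 in DESeq2. Del/+ against Dup/+ gave 121, with 267 in DESeq2, 51 with the share term and 60 (without Del/+ replicate 2) to 194 (without Del/Dup replicate 2).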
